A study of Rattus norvegicus with 10 samples.

Results

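The enzymes of fatty acid oxidation and of the citrate cycle were followed in rat abdominal aorta as 43 listed genes, 22 that activate, import and oxidise fatty acids and 21 of the citrate cycle with the pyruvate dehydrogenase complex and its kinases. Every probe set whose annotation carried the single symbol of a listed gene was taken. That rule found 40 genes on 49 probe sets, 21 genes on 24 probe sets for fatty acid oxidation and 19 genes on 25 probe sets for the citrate cycle, out of 10411 genes and 15866 probe sets on the array. Acaa1a was represented by a probe set that also carries another symbol and is not named here, and Dlat and Fh were not analysed here.

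Total RNA came from the abdominal aorta of untreated rats of the inbred strains BN (Brown Norway) and LOU and was hybridised to 10 Affymetrix 3′ expression arrays, 5 per strain. The labels give an age of 5 weeks and also say that animals were kept to at most 18 weeks, and they give no sex. The notes on extraction mention thoracic as well as abdominal aorta, while the tissue label says abdominal. The labels do not say that each array is a separate rat, so p-values measure the spread between arrays, part of which may be technical.

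Long-chain fatty acids are bound to coenzyme A by acyl-CoA synthetases, carried into mitochondria by the carnitine acyltransferases, and shortened there in repeated rounds of dehydrogenation, hydration, a further dehydrogenation and thiolysis. The electrons of the first step leave through the electron transfer flavoprotein, and the acetyl-CoA enters the citrate cycle, which also takes acetyl-CoA made from pyruvate by pyruvate dehydrogenase. Brown adipocytes, which surround many large arteries of rodents, hold dense mitochondria, burn fatty acids for heat and carry Ucp1, the uncoupling protein that defines them.

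Signals of 43 of the 49 member probe sets were above the level of bacterial control probe sets on all 10 arrays, a background of 21.2 to 49.2 depending on the array. The members below it were the thioesterases Acot1, above it on 0 arrays, and Acot2, above it on 2, a second Hadh probe set on 1 and a second Pdk2 probe set on 3. Acadsb and Acsl3 passed it on 9. Of the 9 marker lists for cells an aorta sample can hold, the summed signal of 9 smooth muscle genes was 46915 to 68477 in BN and 42169 to 58489 in LOU, with none of the 9 below background throughout. Signals of genes listed as brown and as white adipocyte markers were also high. Whether a listed gene is limited to that kind of adipocyte was not tested, so the sums do not show which kind was present. The brown list (14 genes with Ucp1 among them, all above background on at least 1 array) summed to 3414 to 24799 in BN and 2434 to 14659 in LOU, and the white list (18 genes, Lep above background on 0 arrays) to 10154 to 50861 and 11267 to 52609. The striated muscle list summed to 6856 to 9461 in BN and 4927 to 5726 in LOU, with no overlap. Of its 30 genes 7 were above background on no array, and the list includes Des, also on the smooth muscle list. The part of striated muscle in the results was not tested. The adventitial fibroblast list (9 genes, each above background on at least 1 array) summed to 8992 to 12911 in BN and 14457 to 22969 in LOU, with no overlap.

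A pair of arrays stood apart. BN array 3 had the lowest median correlation with the arrays of its strain, 0.915 against 0.923 to 0.935, and the highest summed signal of Schwann cell markers, 6110 against at most 4279 elsewhere. LOU array 1 had the lowest in LOU, 0.929 against 0.937 to 0.942, and the highest sum of macrophage markers, 2816 against at most 1320. Results are given with both arrays, and without them where that moved a count or a value by over 1.5 times.

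Ucp1 itself gave signals of 9039, 12345, 4677, 4701 and 1005 on BN arrays 1 to 5 and 5451, 2966, 751, 485 and 3269.7 on LOU arrays 1 to 5. The highest array was 25.5-fold above the lowest, and arrays of both strains lay at both ends: BN arrays 1 and 2 and LOU array 1 were high, BN array 5 and LOU arrays 3 and 4 were low. BN minus LOU was 1.40 (SE 0.82, adjusted p = 0.506) on the log2 scale, a difference that did not pass against the spread between arrays. The slopes and correlations on Ucp1 below use deviations within a strain unless said otherwise, which keeps the strain difference out of them. The differences between strains at equal Ucp1 do depend on the strain difference of Ucp1. In bulk tissue, fewer cells of a type and less RNA per cell cannot be told apart.

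The question set by the study's design is whether BN and LOU differ. None of the 49 member probe sets passed an adjusted p of 0.05 in limma's test between strains (Benjamini-Hochberg over all probe sets), where 0.246% of all probe sets were called higher and 0.542% lower in BN. Their adjusted p ran from 0.210 to 0.994, and 2 of the 49 (4.08%) had an unadjusted p under 0.05, against 13.3% of all probe sets. Both pathways leaned the same way: 18 of 24 fatty acid oxidation probe sets and 21 of 25 of the citrate cycle had a higher mean in BN, with medians of 0.36 and 0.33 on the log2 scale against −0.027 over all probe sets. Markers of other cells differed between the same strains: 2 of 13 adventitial fibroblast probe sets were called lower in BN (list median −0.53), 1 of 13 Schwann cell probe sets higher (0.45) and 2 of 38 of striated muscle higher (−0.036), and their part in the members' values was not tested. The size of the lean depended on single arrays. The median over members, 0.33 with all arrays, was 0.17 without BN array 2, 0.20 without LOU array 4 and 0.21 without LOU array 3. It was 0.47 without BN array 5 and 0.47 without LOU array 1. Without the pair of arrays that stood apart it was 0.58, and 11 members had an unadjusted p under 0.05. In each of these fits 0 of 49 passed. The signals of the strains were separate in 0 of 49 members. Of all probe sets 1.41% had all BN arrays above all LOU arrays and 2.77% the reverse. With shares that small, 0 of 49 is no result about the members.

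Among fatty acid oxidation genes, counting the brightest probe set of a gene, the smallest strain p belonged to Crat, Acsl5 and Acsl4. Crat, the carnitine acyltransferase for short chains, gave 566, 693, 343, 464 and 386 on BN arrays 1 to 5 and 435, 311, 280.1, 249.8 and 316 on LOU arrays 1 to 5. BN arrays 1, 2 and 4 were above every LOU array, and BN arrays 3 and 5 fell among them, a difference of 0.60 (SE 0.22, adjusted p = 0.274). Acsl5, an acyl-CoA synthetase of mitochondria and endoplasmic reticulum, gave 1256, 2383, 930.2, 1282 and 491 on BN arrays 1 to 5 and 1316, 753, 507, 367 and 625 on LOU arrays 1 to 5. Its difference of 0.79 (SE 0.44, adjusted p = 0.483) came with overlapping strains, since BN array 5 lay below all LOU arrays but LOU array 4. Acsl4, a synthetase that prefers arachidonic acid, gave 204, 189.7, 282, 164 and 124 on BN arrays 1 to 5 and 169.9, 166, 117, 104 and 159.9 on LOU arrays 1 to 5. The BN array with the highest Acsl4 signal was array 3, one that stood apart, and the difference was 0.41 (SE 0.23, adjusted p = 0.498).

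In the citrate cycle group, counting the brightest probe set of a gene, the smallest strain p belonged to Pdhb, Idh2 and Suclg1; a second Pdk1 probe set with a smaller p is described with the kinases. Pdhb, the beta subunit of the enzyme that decarboxylates pyruvate, gave 3236, 4411, 2446, 3395 and 1134 on BN arrays 1 to 5 and 3532, 1482, 1143, 714 and 1775 on LOU arrays 1 to 5. BN array 5 lay between LOU arrays 3 and 4, the lowest of LOU, and the difference was 0.83 (SE 0.46, adjusted p = 0.481). Idh2, the mitochondrial NADP-dependent isocitrate dehydrogenase, gave 1319, 1526, 1003, 1289 and 1236 on BN arrays 1 to 5 and 1709, 1441, 1386, 1349.6 and 1552 on LOU arrays 1 to 5 and was the one of these 6 genes with a lower mean in BN, −0.23 (SE 0.14, adjusted p = 0.510). Suclg1, the alpha subunit of succinyl-CoA synthetase, gave 1164, 1484, 707, 756 and 563 on BN arrays 1 to 5 and 1153, 586, 516, 304 and 702 on LOU arrays 1 to 5, a difference of 0.56 (SE 0.37, adjusted p = 0.560). The strains overlapped in Idh2 and in Suclg1.

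Signals of both pathways followed Ucp1 over the arrays. In the fit with strain as a term, 27 of 49 member probe sets, from 24 genes, had a positive slope on log2 Ucp1 past the threshold, against 1.58% of all probe sets, and 0 had a negative one, against 0.17%. The 27 were 13 of 24 for fatty acid oxidation and 14 of 25 for the citrate cycle, 12 genes each. Of all 49 slopes 46 were positive, with a median of 0.48 for fatty acid oxidation and 0.33 for the citrate cycle (log2 signal per log2 unit of Ucp1), while the median over all probe sets was −0.010. All 27 called slopes were positive in BN alone and in LOU alone. In each of the 27, array 5 was the lowest of BN and array 1 the highest of LOU, the BN maximum was on array 2 (19 probe sets) or array 1 (8), and the LOU minimum on array 4 (21) or array 3 (6). The 27 were picked for following Ucp1 on these same arrays, so neither pattern is separate support for the link.

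How firmly these calls stand depends on single arrays. BN array 5 and LOU array 4 hold 30.1% and 21.5% of the within-strain variation of Ucp1. Without BN array 5 the member count fell from 27 to 1 (Etfb) while positive calls over all probe sets fell from 251 to 9, and the median member slope was 0.35 with and without that array. Leaving out BN array 1 gave 14 (0.662% of all probe sets called positive) and BN array 2 gave 12 (0.599%). In LOU leaving out array 1 gave 9 (0.448%), array 3 gave 16 (0.838%) and array 4 gave 12 (0.618%). In these fits 45 to 47 of the 49 slopes were positive each time. With a block for the replicate number 0 members and 0 of all probe sets were called. Without both BN array 3 and LOU array 1 the member count was 10, against 0.416% of all probe sets.

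**Figure D1:**
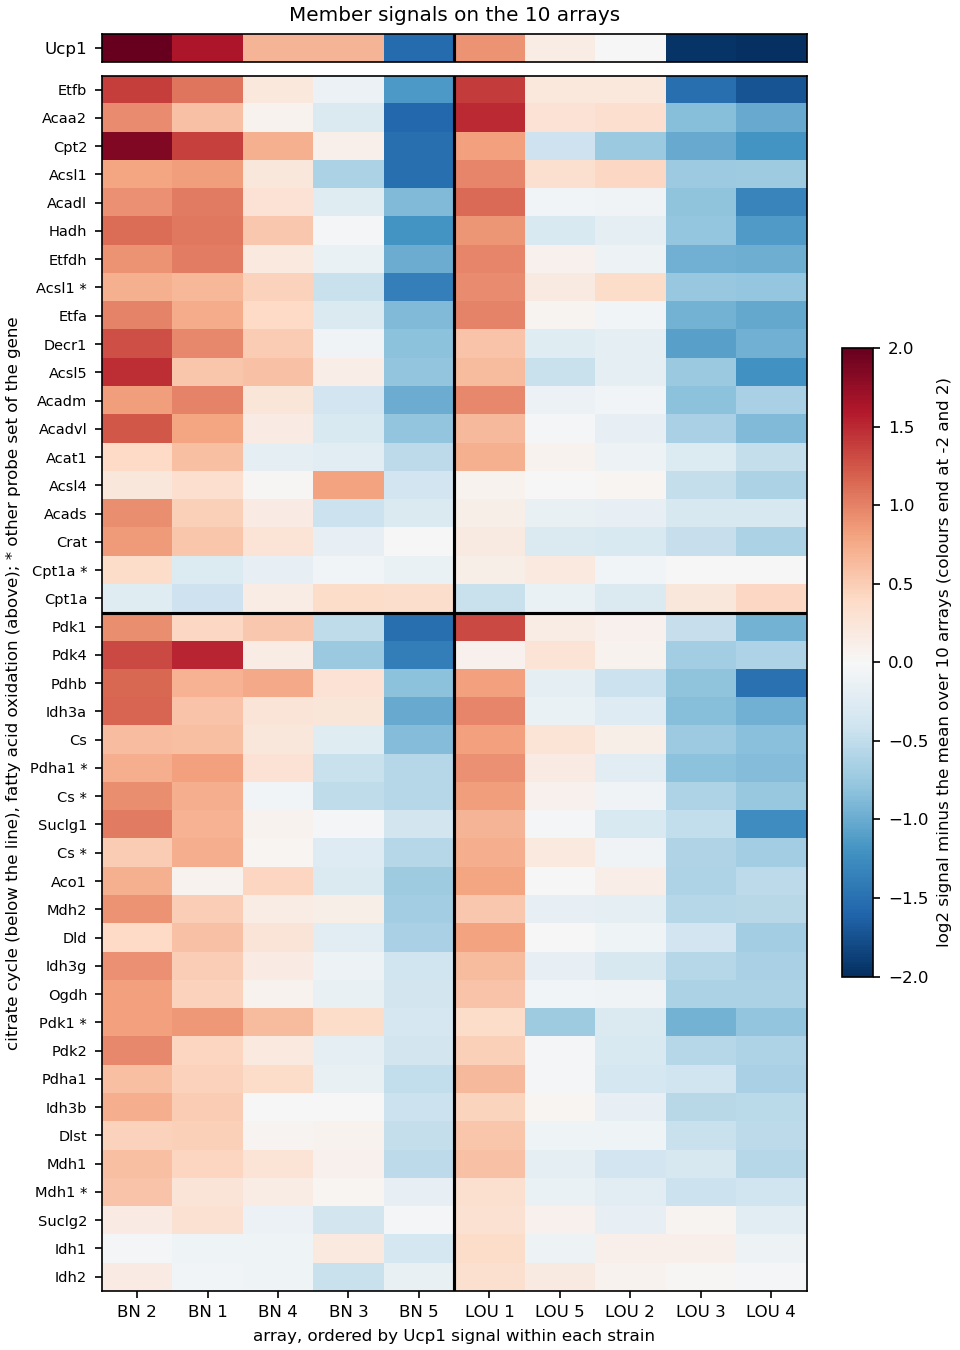
Signals of the 43 member probe sets above background on all 10 arrays (rows) on the 10 arrays (columns, ordered by Ucp1 within each strain), as log2 signal minus the row's mean over the arrays; the top row is Ucp1, fatty acid oxidation stands above the black line, the citrate cycle below it, and * marks a further probe set of a gene. Columns BN 2, BN 1 and LOU 1 are red in most rows and columns BN 5, LOU 3 and LOU 4 blue, while Idh1, Idh2 and Suclg2 show little of this. The brighter Cpt1a probe set runs the other way, with a slope that did not pass.

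The window around the gene start was read for the listed genes. Promoter sequences (250 bases before to 50 after the start, RefSeq, assembly GRCr8) matched 39 of the 43, among them 20 of the 24 genes called for Ucp1, and were not used here for Acaa2, Acadl, Decr1 and Idh3a. A first search, on both strands, used TCAAGGTCA, the word of oestrogen-related receptors, its core AAGGTCA, and DR1, the repeat bound by PPAR with RXR. These were in 0 of the 39 promoters, and in 0.433%, 4.61% and 0.0538% of the 33469 promoters of the table (0.366%, 3.78% and 0.0229% of the 21851 of protein-coding genes), so a count of 0 says only that the letters are not in these windows. A second search with 3 shorter words was chosen after that result. AGGTCA, the half-site contained in all the words above, was in 5 of the 39 listed genes (12.8%), against 16.2% of all promoters and 14.2% of coding ones, and in 2 of the 20 called genes, Acadvl and Pdhb. CCGGAAG, the core of ETS factors, was in 6 of 39 (15.4%), against 8.75% of all and 10.7% of coding promoters, and in 4 of the 20, Cpt2, Dlst, Idh3b and Mdh2. GCATGCGC, 1 spelling of part of the word of nuclear respiratory factor 1, was in 0 of 39, against 2.47% and 3.11%. Other spellings of that word were not searched, so this count does not say that the listed promoters lack it. A match is a description of letters and not a binding site.

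Shown are Etfb and Cs, among the members most like Ucp1 in each pathway, with none of the words, and Cpt2 and Pdhb, which also rose with Ucp1, with 1 word each. Capitals mark CCGGAAG in Cpt2 and AGGTCA in Pdhb, found on the printed strand of a search of both. Etfb lies at chr1:102988249-102988548, plus strand, Cs at chr7:1348139-1348438, plus strand, Cpt2 at chr5:127910769-127911068, minus strand, and Pdhb at chr15:19182539-19182838, plus strand, and each is written 5′ to 3′ in the direction of its gene.
Etfb: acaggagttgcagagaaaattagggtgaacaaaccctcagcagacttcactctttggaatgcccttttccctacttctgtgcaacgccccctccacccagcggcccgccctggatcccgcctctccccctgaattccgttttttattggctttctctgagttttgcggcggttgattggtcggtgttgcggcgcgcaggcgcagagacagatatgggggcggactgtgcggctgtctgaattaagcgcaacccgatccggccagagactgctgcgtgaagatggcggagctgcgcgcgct
Cs: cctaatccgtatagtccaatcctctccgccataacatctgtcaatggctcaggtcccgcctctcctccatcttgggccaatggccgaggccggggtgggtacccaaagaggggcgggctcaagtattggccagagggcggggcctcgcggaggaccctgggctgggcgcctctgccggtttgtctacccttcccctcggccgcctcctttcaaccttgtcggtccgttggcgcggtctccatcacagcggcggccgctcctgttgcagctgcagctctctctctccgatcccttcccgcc
Cpt2: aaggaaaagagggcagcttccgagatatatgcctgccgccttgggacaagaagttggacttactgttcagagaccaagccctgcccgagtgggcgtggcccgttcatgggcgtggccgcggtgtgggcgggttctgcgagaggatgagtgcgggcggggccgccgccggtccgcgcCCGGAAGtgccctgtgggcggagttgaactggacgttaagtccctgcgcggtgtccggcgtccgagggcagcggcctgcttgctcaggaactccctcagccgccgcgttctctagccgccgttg
Pdhb: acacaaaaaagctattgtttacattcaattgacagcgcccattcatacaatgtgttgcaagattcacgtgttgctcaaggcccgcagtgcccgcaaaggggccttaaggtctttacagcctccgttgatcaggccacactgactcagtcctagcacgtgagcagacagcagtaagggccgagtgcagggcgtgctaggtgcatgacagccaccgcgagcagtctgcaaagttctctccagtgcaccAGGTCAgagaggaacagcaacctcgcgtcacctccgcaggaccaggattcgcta

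Activation of fatty acids came first in the pathway. Acsl1, the main long-chain acyl-CoA synthetase of adipose tissue and muscle, gave 2846, 2738, 1029, 1858 and 562 on BN arrays 1 to 5 and 3143, 2116, 965, 969 and 1986 on LOU arrays 1 to 5 on its brighter probe set. The second probe set (1370939_at) gave 2498, 2597, 1163, 2176 and 616 on BN arrays 1 to 5 and 3037, 2043, 936, 928 and 1795 on LOU arrays 1 to 5. Both were lowest on BN array 5 and highest on LOU array 1, with slopes of 0.57 (SE 0.076, adjusted p = 0.0111) and 0.54 (SE 0.071, adjusted p = 0.0111). Acsl5, whose signals are given above, had a slope of 0.48 (SE 0.078, adjusted p = 0.0228). The other synthetases did not pass: Acsl4 had a slope of 0.20 (SE 0.066, adjusted p = 0.174). Acsl3, an enzyme of lipid droplets with signals of 47.8 to 114, had one of −0.034 (SE 0.094, adjusted p = 0.904).

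Import by carnitine acyltransferases split. Cpt2, which rebuilds acyl-CoA on the inner side of the mitochondrial membrane, gave 739.6, 1043, 310.4, 472 and 101 on BN arrays 1 to 5 and 509, 173, 143, 126 and 216 on LOU arrays 1 to 5. The highest Cpt2 signal, on BN array 2, was 10.3-fold above the lowest, on BN array 5, and the slope was 0.67 (SE 0.12, adjusted p = 0.0323). Cpt1a, the liver-type enzyme of the outer membrane that is inhibited by malonyl-CoA, gave 210.4, 235, 360.4, 308 and 358 on BN arrays 1 to 5 and 206, 229, 328, 372 and 256 on LOU arrays 1 to 5. Its lowest arrays, LOU 1 and BN 1, were among the highest for Ucp1, and LOU array 4, lowest for Ucp1, was its highest. The slope was −0.22 (SE 0.050, adjusted p = 0.0759) and did not pass, and the correlation was r = −0.88 (exact permutation p = 0.00187, adjusted p = 0.0569) and rho = −0.89 (exact permutation p = 0.00333). The second Cpt1a probe set (1367836_at), with 155 to 242, did not follow this pattern, with a slope of 0.052 (SE 0.051, adjusted p = 0.666), so the probe sets of this gene disagree. The brighter probe set passed, with the same negative slope, when the dimmest 40% of probe sets were left out, with a floor of 32 and with a variance trend (adjusted p = 0.0209 to 0.0422). Crat had a slope of 0.19 (SE 0.061, adjusted p = 0.165).

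Cpt1b, the outer-membrane isoform of muscle and brown fat and not a listed member, gave 582, 661, 370.0, 361 and 94.5 on BN arrays 1 to 5 and 1027, 299, 118, 83.7 and 427 on LOU arrays 1 to 5. Its slope was 0.87 (SE 0.072, adjusted p = 0.00196), and its difference from that of Cpt1a was not tested. Slc25a20, the carnitine carrier that joins the outer and inner enzymes, had a slope of 0.61 (SE 0.056, adjusted p = 0.00313).

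The acyl-CoA dehydrogenases, which open each round of oxidation, differ in chain length. Acadvl, for very long chains, gave 1027, 1409, 481, 665 and 342 on BN arrays 1 to 5 and 934, 530.4, 377, 322 and 576 on LOU arrays 1 to 5. Acadl, for long chains, had the highest mean signal in its pathway, which sets no order of transcripts since probe sets bind unequally, and gave 3482, 3209.7, 1434, 2072 and 926 on BN arrays 1 to 5 and 3743, 1623, 972, 681 and 1643 on LOU arrays 1 to 5. Acadm, for medium chains, gave 2969, 2654, 1140.1, 1774 and 750.2 on BN arrays 1 to 5 and 2904, 1439.8, 848, 948 and 1375 on LOU arrays 1 to 5. All 3 were highest on BN arrays 1 and 2 and LOU array 1. Their slopes were 0.45 (SE 0.073, adjusted p = 0.0222), 0.56 (SE 0.076, adjusted p = 0.0111) and 0.47 (SE 0.085, adjusted p = 0.0326), in that order. Acads, for short chains, did not pass, with 0.20 (SE 0.076, adjusted p = 0.237) and signals of 326 to 834. Acadsb, for short branched chains and dim at 31.7 to 84.7, had a slope of 0.13 (SE 0.099, adjusted p = 0.572).

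Later steps of oxidation gave the second-highest slope of any called member. Acaa2, the mitochondrial thiolase, gave 1417, 1811, 771, 988 and 319.6 on BN arrays 1 to 5 and 2662, 1192, 525, 468 and 1154 on LOU arrays 1 to 5. LOU array 1 stood above every BN array, BN array 5 below every LOU array, and the slope was 0.67 (SE 0.061, adjusted p = 0.00313). Hadh, the dehydrogenase of the third step, gave 2657, 2792, 1257, 1868 and 562 on BN arrays 1 to 5 and 2372, 1138, 752, 585 and 1042 on LOU arrays 1 to 5, with a slope of 0.56 (SE 0.079, adjusted p = 0.0123). Decr1, the reductase needed for unsaturated fatty acids, gave 1911, 2401, 932, 1392 and 556 on BN arrays 1 to 5 and 1460.4, 866, 461, 504 and 827 on LOU arrays 1 to 5, with a slope of 0.49 (SE 0.069, adjusted p = 0.0117). Both were lowest within BN on array 5. The second Hadh probe set (1389922_at), at 4.30 to 34.2 and mostly below background, gave 0.13 (SE 0.20, adjusted p = 0.807). Acat1, the thiolase shared with ketone body metabolism, had signals of 452 to 1066 and a slope of 0.28 (SE 0.061, adjusted p = 0.0634), just outside the threshold.

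All 3 genes of the electron transfer flavoprotein system passed. Etfa, its alpha subunit, gave 951, 1133, 467, 744 and 308 on BN arrays 1 to 5 and 1126, 548, 295, 278 and 589 on LOU arrays 1 to 5. Etfb, its beta subunit, gave 1569, 1947, 686, 858 and 337 on BN arrays 1 to 5 and 1974, 863, 261, 226 and 867 on LOU arrays 1 to 5. Etfdh, the membrane enzyme that hands the electrons to ubiquinone, gave 617, 560.5, 274, 346 and 151 on BN arrays 1 to 5 and 596, 283, 155, 153 and 320.4 on LOU arrays 1 to 5. The order of arrays within LOU was the same in all 3 as for Ucp1, from array 1 down to array 4, and array 5 was the lowest of BN. The slopes were 0.52 (SE 0.067, adjusted p = 0.0104) for Etfa, 0.79 (SE 0.068, adjusted p = 0.00248) for Etfb, which was the steepest of all called members, and 0.54 (SE 0.066, adjusted p = 0.00862) for Etfdh. The strain difference of Etfb was 0.56 (SE 0.66, adjusted p = 0.760), with overlapping strains.

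Acot1 and Acot2, the cytosolic and mitochondrial thioesterases that split acyl-CoA again, are close paralogs and were near or under background. Acot1 gave 20.9, 14.6, 19.2, 12.2 and 16.5 on BN arrays 1 to 5 and 9.50, 16.9, 15.1, 23.7 and 18.8 on LOU arrays 1 to 5. Acot2 gave 59.4, 42.7, 9.60, 14.9 and 1.30 on BN arrays 1 to 5 and 11.6, 28.9, 27.7, 23.1 and 23.6 on LOU arrays 1 to 5. Neither passed a test, with slopes of −0.11 (SE 0.093, adjusted p = 0.611) and 0.61 (SE 0.31, adjusted p = 0.367), and their low signals set no order between arrays.

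**Figure D2:**
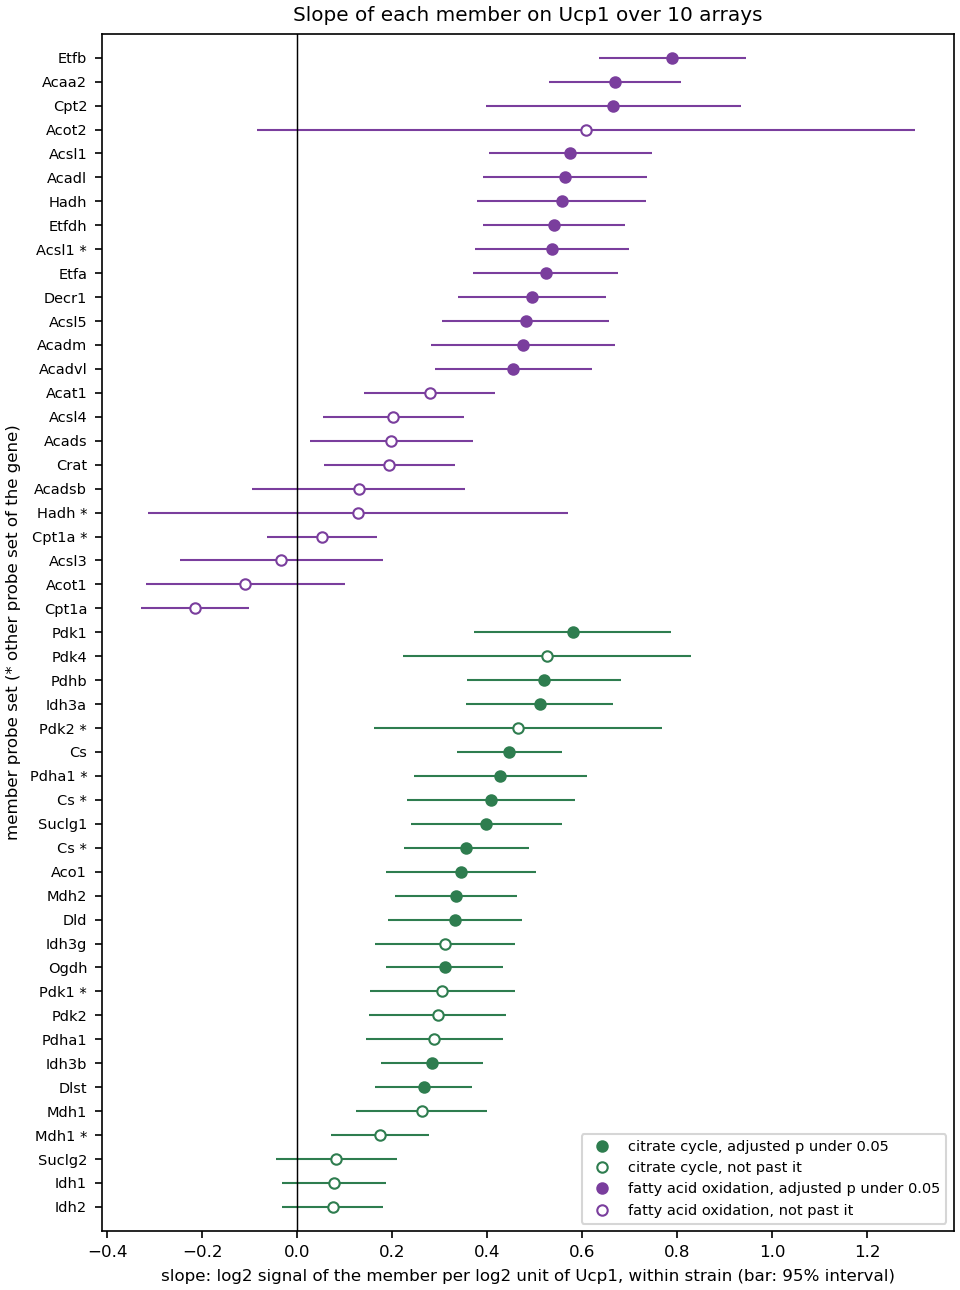
Slope of each of the 49 member probe sets on Ucp1 within strains (points) with 95% intervals (bars), fatty acid oxidation in purple and the citrate cycle in green; filled points passed an adjusted p of 0.05 in limma, and * marks a further probe set of a gene. The 27 filled points lie between 0.27 (Dlst) and 0.79 (Etfb), and the interval of Cpt1a, −0.33 to −0.10, lies below 0 without an adjusted p past the threshold.

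Entry of pyruvate was read from pyruvate dehydrogenase and its kinases. Pdhb, given above, had a slope of 0.52 (SE 0.072, adjusted p = 0.0117). Pdha1, the alpha subunit, gave 2715, 3000.5, 1777, 2554 and 1406 on BN arrays 1 to 5 and 3097, 1555, 1499, 1265 and 1939 on LOU arrays 1 to 5 on the brighter probe set, with a slope of 0.29 (SE 0.063, adjusted p = 0.0644). Its second probe set (1383698_at) gave 1224, 1150.3, 510.5, 849 and 468 on BN arrays 1 to 5 and 1306, 591, 392, 379 and 774 on LOU arrays 1 to 5 and passed, with 0.43 (SE 0.080, adjusted p = 0.0367). Both Pdha1 probe sets were highest on LOU array 1 and lowest on LOU array 4. Dld, the dihydrolipoamide dehydrogenase that this complex shares with 2-oxoglutarate dehydrogenase, gave 1032, 897, 586, 816 and 438 on BN arrays 1 to 5 and 1197, 646, 522, 422 and 678 on LOU arrays 1 to 5, with a slope of 0.33 (SE 0.062, adjusted p = 0.0367).

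The pyruvate dehydrogenase kinases, which switch the complex off, included 1 called probe set of 5. Pdk1 gave 172, 247, 91.0, 188 and 45.5 on BN arrays 1 to 5 and 324, 137, 93.6, 67.4 and 143 on LOU arrays 1 to 5 on its called probe set, lowest on BN array 5 and highest on LOU array 1, with a slope of 0.58 (SE 0.091, adjusted p = 0.0211). Its other probe set (1390203_at) gave 236, 228, 167, 202 and 102 on BN arrays 1 to 5 and 167, 106, 67.4, 75.3 and 79.2 on LOU arrays 1 to 5 and had the smallest strain p of all members, with BN minus LOU 0.94 (SE 0.30, adjusted p = 0.210) and a slope of 0.30 (SE 0.067, adjusted p = 0.0651). On the called probe set BN minus LOU was −0.056 (SE 0.52, adjusted p = 0.975), a value whose sign turned without BN array 3, BN array 5 or LOU array 1. Pdk2 gave 423, 607, 272, 356 and 244 on BN arrays 1 to 5 and 436, 254, 209, 204 and 308 on LOU arrays 1 to 5, with a slope of 0.30 (SE 0.064, adjusted p = 0.0603). The second Pdk2 probe set (1386975_at), at 13.7 to 87.3 and above background on 3 arrays, gave 74.8, 87.3, 18.8, 27.9 and 19.9 on BN arrays 1 to 5 and 41.9, 16.2, 16.7, 13.7 and 24.5 on LOU arrays 1 to 5, with a slope of 0.46 (SE 0.13, adjusted p = 0.134). Pdk4, the kinase that rises in fasting and with fatty acid supply, gave 619, 535, 129, 238 and 82.2 on BN arrays 1 to 5 and 229, 225, 133, 140.0 and 258 on LOU arrays 1 to 5. Its highest arrays were BN 1 and BN 2, its slope was 0.53 (SE 0.13, adjusted p = 0.10), and it did not pass.

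Of the mitochondrial citrate cycle enzymes 9 of 11 probe sets passed. Cs, citrate synthase, which opens the cycle, had 3 probe sets. The brightest gave 1831, 1852, 1019, 1406 and 661 on BN arrays 1 to 5 and 2112, 1298, 727, 673 and 1456 on LOU arrays 1 to 5. The probe set 1369967_at gave 1027, 1182, 434, 594 and 417 on BN arrays 1 to 5 and 1101, 592, 402, 366 and 659 on LOU arrays 1 to 5. The probe set 1384201_at gave 889, 763, 452, 555 and 364 on BN arrays 1 to 5 and 889, 513, 356, 334 and 616 on LOU arrays 1 to 5. The 3 ran alike, with low signals on BN array 5 and LOU arrays 3 and 4. Their slopes were 0.45 (SE 0.049, adjusted p = 0.00602), 0.41 (SE 0.078, adjusted p = 0.0400) and 0.36 (SE 0.058, adjusted p = 0.0239), and BN minus LOU ran from 0.14 to 0.21.

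NAD-dependent isocitrate dehydrogenase has 3 kinds of subunit. Idh3a, which carries the active site, gave 1098, 1646, 873, 881 and 365 on BN arrays 1 to 5 and 1446, 616, 408, 377 and 672 on LOU arrays 1 to 5, with a slope of 0.51 (SE 0.069, adjusted p = 0.0111). Idh3b gave 1206, 1398, 845, 844 and 630.4 on BN arrays 1 to 5 and 1153, 755, 579, 587 and 874 on LOU arrays 1 to 5, with a slope of 0.28 (SE 0.048, adjusted p = 0.0255). Idh3g, at 804 to 2377, was just outside the threshold with 0.31 (SE 0.065, adjusted p = 0.0557). In LOU, array 1 was the highest for all 3 subunits.

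Ogdh and Dlst form the 2-oxoglutarate dehydrogenase complex with Dld. Ogdh gave 1873, 2405, 1233, 1428 and 1052 on BN arrays 1 to 5 and 2028, 1293, 883, 879 and 1312 on LOU arrays 1 to 5, with a slope of 0.31 (SE 0.055, adjusted p = 0.0312). Dlst gave 906, 900.1, 686, 674 and 466 on BN arrays 1 to 5 and 955, 612, 476, 454 and 615 on LOU arrays 1 to 5, with a slope of 0.27 (SE 0.045, adjusted p = 0.0263). Suclg1, given above, had a slope of 0.40 (SE 0.070, adjusted p = 0.0309). All 3 were lowest within BN on array 5. Suclg2, the beta subunit of the GTP-forming succinyl-CoA synthetase, was flat over the arrays with 654, 596, 412, 491 and 516 on BN arrays 1 to 5 and 655, 475, 549, 460.3 and 562 on LOU arrays 1 to 5. Its highest and lowest signals differed 1.59-fold, and its slope was 0.082 (SE 0.056, adjusted p = 0.519). Mdh2, the mitochondrial malate dehydrogenase, gave 1399.6, 1854, 1076, 1106 and 612 on BN arrays 1 to 5 and 1449, 869.6, 668, 679 and 888 on LOU arrays 1 to 5, with a slope of 0.33 (SE 0.057, adjusted p = 0.0262).

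Of the members that work outside the mitochondrial NAD-linked cycle 1 of 5 probe sets was called. Aco1, the cytosolic aconitase that doubles as an iron-regulatory protein, gave 702, 1099, 547, 898 and 407 on BN arrays 1 to 5 and 1156, 734, 437, 463 and 667 on LOU arrays 1 to 5, with a slope of 0.35 (SE 0.070, adjusted p = 0.0473). Idh1, the cytosolic NADP-dependent isocitrate dehydrogenase, gave 671, 699, 813, 669.6 and 557 on BN arrays 1 to 5 and 917, 763, 763, 667 and 665 on LOU arrays 1 to 5, a 1.65-fold range, with a slope of 0.077 (SE 0.048, adjusted p = 0.474). Idh2 had one of 0.074 (SE 0.047, adjusted p = 0.479). Both NADP-dependent enzymes kept a narrow range, within which Idh2 still ordered the LOU arrays as Ucp1 did and Idh1 did not. Mdh1, the cytosolic malate dehydrogenase and the highest mean signal of the citrate cycle group, gave 3948, 4456, 3111, 3531 and 2039.5 on BN arrays 1 to 5 and 4369.9, 2235, 2339, 1964 and 2589 on LOU arrays 1 to 5, with a slope of 0.26 (SE 0.061, adjusted p = 0.0759). Its second probe set (1372790_at), at 377 to 754, had 0.17 (SE 0.046, adjusted p = 0.105).

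**Figure D3:**
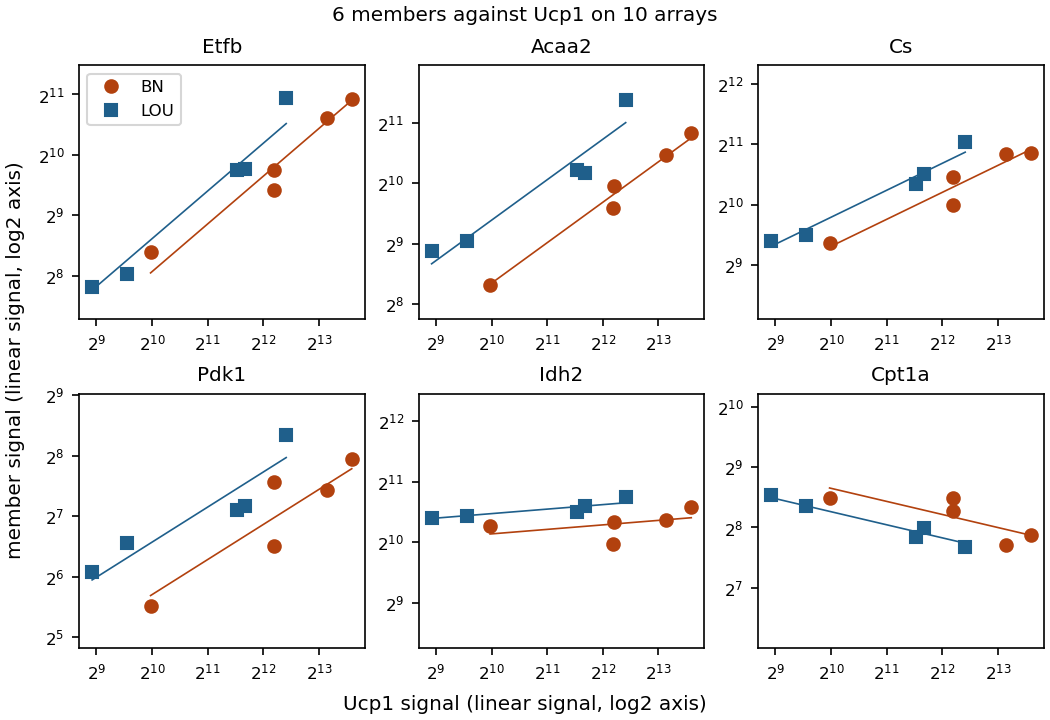
Signals of 6 members (vertical axis, linear signal on a log2 axis) against Ucp1 (horizontal axis, likewise) on 5 BN arrays (circles) and 5 LOU arrays (squares); lines have the common slope of the fit for each gene, through each strain's mean. Etfb, Acaa2, Cs and Pdk1 climb with Ucp1 in both strains, Idh2 is nearly flat, and Cpt1a has a negative slope that did not pass.

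Likeness to Ucp1 was measured as the Pearson correlation of within-strain deviations over the 10 arrays, tested by every order of the arrays within strains, two-sided, with Benjamini-Hochberg adjustment over all probe sets. Of the member probe sets 30 of 49 passed with a positive r, against 1.96% of all probe sets, and r ran from −0.88 (Cpt1a) to 0.97 (Etfb) with a median of 0.89. The most like Ucp1 in fatty acid oxidation were Etfb, Acaa2 and Etfdh. Etfb had r = 0.97 (exact permutation p = 6.94e-05, adjusted p = 0.0220) and rho = 0.99 (exact permutation p = 6.94e-05), where 6.94e-05 is the smallest p these orders can give. Acaa2 had r = 0.97 (exact permutation p = 0.000208, adjusted p = 0.0267) and rho = 0.99 (exact permutation p = 0.000347). Etfdh had r = 0.95 (exact permutation p = 0.000625, adjusted p = 0.0370) and rho = 0.99 (exact permutation p = 0.000347). Leaving out BN array 5 and LOU array 4, the farthest in Ucp1, gave r of 0.98, 0.95 and 0.94.

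In the citrate cycle group the most like were Cs, Idh3a and Dlst. Cs had r = 0.97 (exact permutation p = 6.94e-05, adjusted p = 0.0220) and rho = 1.00 (exact permutation p = 6.94e-05). Idh3a had r = 0.94 (exact permutation p = 6.94e-05, adjusted p = 0.0220) and rho = 0.96 (exact permutation p = 6.94e-05). Dlst had r = 0.94 (exact permutation p = 0.000417, adjusted p = 0.0326) and rho = 0.98 (exact permutation p = 0.000764). Without those arrays r was 0.95, 0.90 and 0.90. The least like were Suclg2, with r = 0.51 (exact permutation p = 0.156, adjusted p = 0.485) and rho = 0.70 (exact permutation p = 0.0444), and Idh1, with r = 0.58 (exact permutation p = 0.104, adjusted p = 0.399) and rho = 0.53 (exact permutation p = 0.156). The r of Idh1 rests on those arrays, since without them it was 0.11. In fatty acid oxidation the least like were Cpt1a, given above, with an r of −0.86 without those arrays, and Acot1, which was below background, with r = −0.39 (exact permutation p = 0.318, adjusted p = 0.659) and rho = −0.36 (exact permutation p = 0.343). Over the 27 probe sets with a called slope, r without those arrays ran from 0.79 to 0.98.

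The slopes were also compared between strains. In the fit with a separate slope per strain, 0 of 49 member probe sets passed, as did 0% of all probe sets, with a lowest adjusted p of 0.336 among members, for Acot2. At an unadjusted p under 0.05 there were 4 members (8.16%), Acot2, Acsl3, Cpt2 and Pdk4, against 6.25% of all probe sets. With 5 arrays per strain these data do not show that the slopes are alike.

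As a mean over genes, each read from its brightest probe set and centred over the 10 arrays, the pathways ran together. The fatty acid oxidation mean was 0.70, 0.77, −0.14, 0.16 and −0.83 on BN arrays 1 to 5 and 0.57, −0.032, −0.55, −0.66 and 0.015 on LOU arrays 1 to 5, in log2 units. The citrate cycle mean was 0.48, 0.72, −0.13, 0.19 and −0.61 in BN and 0.62, −0.13, −0.47, −0.65 and −0.0080 in LOU. BN minus LOU was 0.26 for both, smaller than the SD within a strain of 0.50 to 0.66 for fatty acid oxidation and 0.49 to 0.52 for the citrate cycle. The slope on Ucp1 was 0.38 (SE 0.046) for fatty acid oxidation and 0.33 (SE 0.045) for the citrate cycle, given as a description with no test because the members were chosen with results known. The difference of the means had a slope of 0.054 (SE 0.025), which became 0.027 without BN array 5. That difference was 0.22 on BN array 1 and −0.22 on BN array 5 and between −0.084 and 0.10 on the other arrays. BN minus LOU moved with single arrays: it was 0.11 for both pathways without BN array 2, 0.13 for both without LOU array 4, and for fatty acid oxidation and the citrate cycle 0.12 and 0.17 without BN array 1 and 0.16 and 0.17 without LOU array 3. It was 0.51 and 0.44 without BN array 5, 0.44 and 0.45 without LOU array 1, and 0.51 for both without BN array 3 and LOU array 1.

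**Figure D4:**
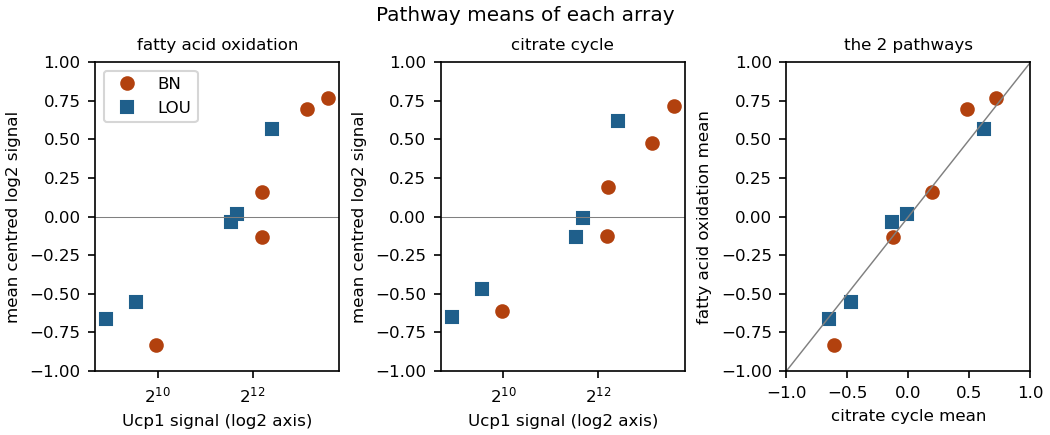
Mean centred log2 signal of 21 fatty acid oxidation genes (left) and 19 citrate cycle genes (middle) on each array against Ucp1 signal (log2 axis), and the pathway means against each other (right, with the line of equality); circles are 5 BN arrays, squares 5 LOU arrays. The means run from −0.83 to 0.77 for fatty acid oxidation and from −0.65 to 0.72 for the citrate cycle, low at low Ucp1 and high at high Ucp1, and the arrays lie close to the line of equality.

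Ucp1 was not the only fat measure that the members followed. With the mean of the white adipocyte markers in its place, 33 of 49 member probe sets passed, including all 27 called for Ucp1, where 2.49% of all probe sets were called with a positive slope. The white adipocyte mean and Ucp1 rose and fell on the same arrays, with a within-strain r of 0.95 over the 10 arrays, given as a description. With both in a fit, added after the data were seen, 0 members passed for either, and 2 members for Ucp1 (4.08%, against 4.25% of all probe sets) and 17 for the white adipocyte mean (34.7%, against 5.09%) had an unadjusted p under 0.05. The part of brown against white adipocytes in the members' signals cannot be told apart here. The sum of smooth muscle markers was highest on BN array 5 (68477) and, in LOU, on LOU array 4 (58489), the arrays lowest in Ucp1, and its part in the results was not tested.

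With Ucp1 as a covariate beside strain, the strain differences of members moved down. In this fit a member's difference is its plain strain difference minus its slope times that of Ucp1, 1.40, which itself did not pass. Members with a positive slope, 46 of 49, thus had to move down, so the move is no separate result. The number of members with a higher mean in BN went from 39 to 14 of 49, and the median from 0.33 to −0.18. Leaving out 1 array gave 9 to 20 positive members, with a median of −0.054 without LOU array 1 and −0.11 without BN array 3, and −0.27 to −0.16 without any other array. With the replicate block it was −0.085. Acaa2 was the 1 member that passed, with BN minus LOU at equal Ucp1 of −1.04 (SE 0.18, adjusted p = 0.0495), against 0.176% of all probe sets called higher in BN and 0.366% lower. Without the covariate the same gene had −0.11 (SE 0.57, adjusted p = 0.958), a value that turned positive without BN array 5 or LOU array 1. The call was lost when any 1 array was left out and under either other scaling of the arrays. Acsl1 had a difference of −0.92 in that fit (adjusted p = 0.139), which passed without the dimmest 40% of probe sets and with a variance trend.

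**Figure D5:**
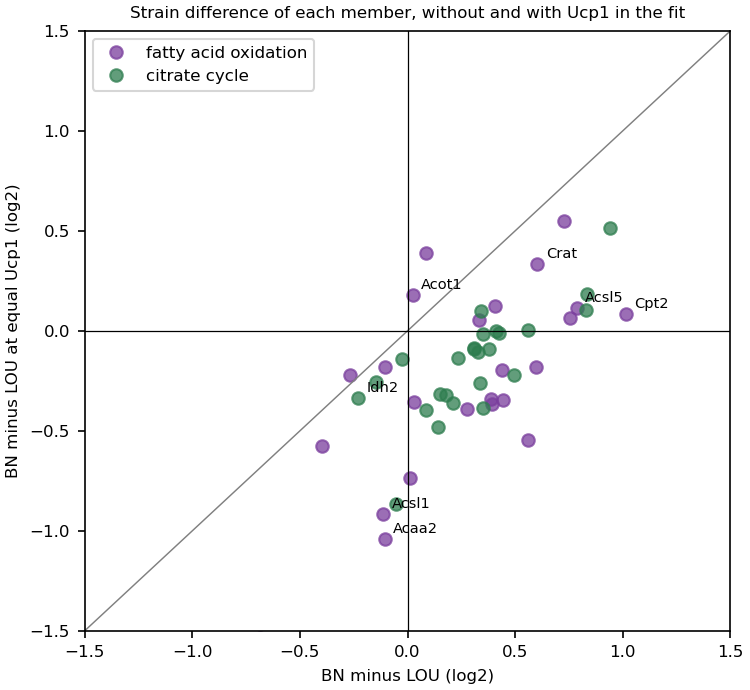
BN minus LOU of the 49 member probe sets (log2) without Ucp1 in the fit (horizontal axis) and with it (vertical axis), fatty acid oxidation in purple and the citrate cycle in green, with the line of equality in grey. Most points fall below the line, which a positive slope on Ucp1 makes them do in this fit. Acaa2, at −0.11 and −1.04, is the 1 member past the threshold with Ucp1 in the fit.

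Other genes of the same pathways, taken from lists, were called for Ucp1 with a positive slope in 14 of 40 probe sets for fatty acid oxidation and 9 of 33 for the citrate cycle and pyruvate. Of all probe sets 1.58% were. The fatty acid list includes Cd36 and Fabp4, also on the white adipocyte list, and Cpt1b and Fabp3, also on the brown one. Hadha and Hadhb, the subunits of the mitochondrial trifunctional protein, had slopes of 0.40 (SE 0.060, adjusted p = 0.0168) and 0.55 (SE 0.059, adjusted p = 0.00565). Sdha and Sdhb, subunits of succinate dehydrogenase, had 0.36 (SE 0.058, adjusted p = 0.0228) and 0.42 (SE 0.062, adjusted p = 0.0144). Pck1, which makes glycerol backbones in fat, had 0.75 (SE 0.077, adjusted p = 0.00554), and Acly, which returns citrate to cytosolic acetyl-CoA for fat synthesis, had 0.59 (SE 0.092, adjusted p = 0.0198). Ehhadh, a peroxisomal enzyme at 10.0 to 75.1, had 0.69 (SE 0.069, adjusted p = 0.00499).

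Of the factors that regulate oxidative genes 4 of 15 probe sets were called, Lpin1, Cebpb, Cebpa and Pparg, of which Pparg, the main adipocyte factor, had a slope of 0.51 (SE 0.088, adjusted p = 0.0280). Cebpa was dim, at 5.6 to 86.3, and above background on 6 of the 10 arrays. Ppara, the receptor best known for fatty acid oxidation genes in liver, was above background on 0 arrays. Ppargc1a, the coactivator of mitochondrial genes, was above it on 2 arrays, with a slope of 1.01 (SE 0.32, adjusted p = 0.171), and Esrra, an oestrogen-related receptor, had 0.22 (SE 0.093, adjusted p = 0.275). In oxidative phosphorylation 13 of 69 probe sets were called for Ucp1 and in glycolysis 7 of 25, all with a positive slope, against 1.58% of all probe sets. At an unadjusted p under 0.05 for Ucp1 they had 55 and 16, against 40 of 49 members and 16.5% of all probe sets. White adipocyte markers were called for Ucp1 in 16 of 22 probe sets and brown ones, Ucp1 left out, in 7 of 15. Between strains limma called 0 probe sets of the other pathway genes, the regulators, oxidative phosphorylation and glycolysis. An unadjusted p under 0.05 was found for 11 of 40 probe sets of the other fatty acid oxidation genes, 8 of 33 of the other citrate cycle and pyruvate genes, 0 of 15 of the regulators, 10 of 69 of oxidative phosphorylation and 8 of 25 of glycolysis, against the 13.3% given above.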

How the data were processed

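Total RNA of abdominal aorta was measured on 10 Affymetrix 3′ arrays, 5 BN and 5 LOU, per the labels. The deposited values are array intensity, 1 per probe set, on a linear scale (0 to 22219.9, 2% trimmed mean 200.05 to 200.06 on each array). The submitters' processing notes name RMA, which gives log2 values, so how the deposited intensity was made is known only from the values, and the main design, written for linear signals, applied. From them log2 was computed here, with 4 zeros set to 0.1, and 57 control probe sets were left out. Symbols come from the platform annotation, updated through RefSeq identifiers. A gene's main probe set is the one with the highest mean.

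Tests were made with limma 3.58.1 in R 4.3.3 (lmFit, eBayes, two-sided, Benjamini-Hochberg over 15866 probe sets, or 15865 without Ucp1, threshold 0.05). The fits held strain, strain with log2 Ucp1 (centred over all arrays of the fit), and both with their interaction. Correlations used exact permutation. The fits were tried on simulated data with noise drawn independently for each probe set. That trial did not cover variation that probe sets share over the arrays. Summaries were computed in Python 3.11.15 (numpy 2.4.6, pandas 2.3.3, scipy 1.17.1) and drawn with matplotlib 3.10.9.

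The members and all gene lists were chosen with earlier results of these data known. Values on every array are given for probe sets past a threshold, and per pathway for the 3 genes with the smallest strain p, the 3 highest and 2 lowest correlations with Ucp1 and the gene with the highest mean signal, for Acot1, Acot2 and the kinases, and for Ucp1. Other settings tried covered the scaling (centring on the median, quantile normalization), dim probe sets (the dimmest 40% dropped, signals floored at 32), limma's array weights and variance trend, a block for the replicate number, single arrays left out, Ucp1 as covariate, the white adipocyte mean in place of Ucp1, no strain term, and averaging of probe sets. Choices made after the data were seen were the background level (95th percentile of 45 bacterial controls), leaving out BN array 3 with LOU array 1, the white adipocyte mean as a covariate and beside Ucp1, the alternatives to the fit at equal Ucp1, and the shorter promoter words. Same-numbered arrays of the strains deviated with r between −0.045 and 0.015, and 0 of 5 matched best. The labels do not say whether the numbers pair arrays, and these values do not settle it. The number of arrays limits the precision.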

Additional observations from a re-analysis of the deposited data

Results flagged for a closer look

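Log2 signals of each member probe set and of Ucp1 were looked over within each strain for an array far from the other 4. The measure was the gap to the nearest divided by the range, both in log2 units, against a critical share of 0.71. The signals printed here are linear. Of 100 groups looked at 2 were flagged, and chance flags about 1 in 20. On the second Hadh probe set, BN array 4 had a signal of 34.2, with the next BN array at 11.8, and this was the 1 array on which that probe set passed the background. For Acot2, LOU array 1 had a signal of 11.6, the lowest of its strain, with the next at 23.1, and the probe set was above background on 2 arrays. Neither probe set passed a test.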

How the results depend on the processing

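Between strains 0 members were called under 18 of the 20 alternatives to the main fit. The exceptions were 1 with Ucp1 as a covariate (Acaa2) and 1 with the white adipocyte mean as a covariate (a second Pdk1 probe set, higher in BN). The 27 members called for Ucp1 were 23 to 36 under both other scalings, the dim filter, the floor, the variance trend, array weights, the white adipocyte mean and no strain term. Over all probe sets 1.29% (quantile normalization) to 4.70% (dim filter) were called with a positive slope there. Of the members 1 of the 36 with the dim filter or the trend, and 1 of 33 with the floor, was Cpt1a with a negative slope. Leaving out 1 array gave 1 to 29 (0.0567% to 1.57% of all probe sets called positive), and leaving out BN array 3 with LOU array 1 gave 10 (0.416%). In the paired analysis, with the replicate block, 0 members and 0 of all probe sets were called for Ucp1, and 27 members had an unadjusted p under 0.05. Whether the numbers pair arrays is not known. At equal Ucp1 the 1 called member became 0 when any 1 array was left out (0 to 0), with median centring, quantile normalization and the replicate block, and 2 without the dimmest 40% and with the variance trend (Acaa2 and Acsl1). The slope of the difference of pathway means was 0.054 to 0.073 except 0.027 without BN array 5, and no other pathway value moved by more than its spread. Of the strain differences run, those of Pdk1 and Acaa2, near 0, changed sign: leaving out 1 array gave −0.30 to 0.31 for Pdk1 and −0.37 to 0.27 for Acaa2, array weights gave 0.12 and 0.012, and leaving out BN array 3 with LOU array 1 gave 0.39 and 0.32. Etfb was −0.54 with Ucp1 as a covariate. Those of Acsl4, Acsl5, Crat, Idh2, Pdhb, Suclg1, the second Pdk1 probe set and Ucp1 kept their sign, as did the slopes run for the named members; other members' strain differences were run as counts only. Signal over background limits Acot1, Acot2 and the second Hadh and Pdk2 probe sets.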
